A study of Homo sapiens with 2 samples.

Results

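The levels of 8 genes of plasminogen activation and tissue factor signalling were examined in 2 lung cancer cell lines. The genes were PLAU, PLAUR, PLAT, SERPINE2, F3, TFPI, TFPI2 and THBD. They were chosen by symbol, with earlier results of these data known. All 8 were found among the 27685 genes of the deposited gene table, with 26 of the 63714 listed transcripts. RNA-seq was performed on 1 library of H2087 cells and 1 library of H596 cells, both established lines, cultured in RPMI medium with serum and left untreated. Both carry the label lung adenocarcinoma, and no treatment separates them. They are different lines, and genetic differences between them were not examined. The study used H2087 to find highly expressed genes, those with an FPKM (fragments per kilobase of exon, scaled to the mapped fragments of the library) of at least 100. The estimated counts summed to 46961500 in H2087 and 55387847 in H596. Each line had a single library, so no value below has a replicate check, no test between the lines was possible, and the 95% intervals cover counting error only.

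Plasmin is the protease that dissolves fibrin and also degrades extracellular matrix. It is made from plasminogen by 2 activators, urokinase (PLAU), which works at the cell surface while bound to its receptor (PLAUR), and tissue-type activator (PLAT), which is best known for acting on fibrin. Serpins such as SERPINE2 block these proteases. Tissue factor (F3) is the membrane receptor that starts coagulation by binding factor VIIa. TFPI is its main inhibitor, TFPI2 is a related inhibitor that acts mostly on plasmin and other matrix-degrading proteases, and THBD (thrombomodulin) binds thrombin and turns it towards activation of the anticoagulant protein C. Carcinoma cells, including those of the lung, are known to express both urokinase and tissue factor.

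Markers were used to check the labels. The epithelial markers EPCAM, KRT8, KRT18, KRT19 and CDH1 were present in both libraries, with FPKM values of at least 52.3 in H2087 and 59.6 in H596. For NKX2-1, a transcription factor of lung adenocarcinoma, the FPKM was 109.99 (H2087) and 0.508 (H596), and for NAPSA 21.9 and 0.0645. SFTPB and SFTPC had at most 22 counts in either library, while KRT7 was high in both (791 and 608). All 5 squamous markers were higher in H596: their summed FPKM was 1.66 in H2087 and 250.2 in H596, with TP63 at 0.183 and 55.2 and KRT5 at 0 counts and 106. Thus H596, although labelled adenocarcinoma, lacked most of the adenocarcinoma markers examined and carried squamous ones. The fibroblast markers COL1A1, COL1A2, COL3A1, DCN and LUM summed to 3.90 and 10.7, most of it COL1A1 in H2087 and DCN in H596, and the blood markers PTPRC, CD3E, CD14, LYZ and HBB to 0.421 and 0.2496. The adenocarcinoma and squamous markers thus separated the same 2 libraries as every comparison below. Their part in it was not tested, and with 1 library each it cannot be told apart from any other difference between the lines.

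Of the 8 genes, 6 were at least 2-fold higher in H2087, 1 was at least 2-fold higher in H596, and F3 was higher in H596 by less than 2-fold. Differences were taken between values of log2(FPKM + 1) as H596 minus H2087, a scale on which 1 unit is 2-fold and changes of low genes are understated. All 8 genes had a mean FPKM of at least 1, the filter for this comparison. Over the 13048 genes that passed the filter, 32.4% differed at least 2-fold, 14.2% being higher in H2087 and 18.2% higher in H596. The balance of the directions over all genes depended on the scaling: 2376 genes were higher in H596 and 1850 in H2087, against 2066 and 2140 with TMM scaling, 2042 and 2120 after centring on the median difference, and 3590 and 2004 with TPM. The median difference was -1.57 over the 8 genes and 0.12 over all 13048. Because the 8 genes were chosen with earlier results of these data known, their share and median are descriptions only. They cannot show that the pathway differs more than other genes. In a bulk culture, fewer cells that express a gene and less RNA per cell cannot be told apart.

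The order of the levels differed between the lines. In H2087 it was PLAU, PLAT, THBD, F3, TFPI, PLAUR, SERPINE2 and TFPI2, and only the last pair had overlapping counting intervals. In H596 it was PLAU, F3, TFPI2, PLAT, PLAUR, SERPINE2, THBD and TFPI, and the intervals overlapped for PLAUR with SERPINE2 and for THBD with TFPI. PLAU was thus the highest of the 8 in both lines, while THBD moved from the third place to the seventh. By the study's threshold, 2 of the 8 genes (PLAU and PLAT) counted as highly expressed in H2087 and 1 (PLAU) in H596.

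**Figure D1:**
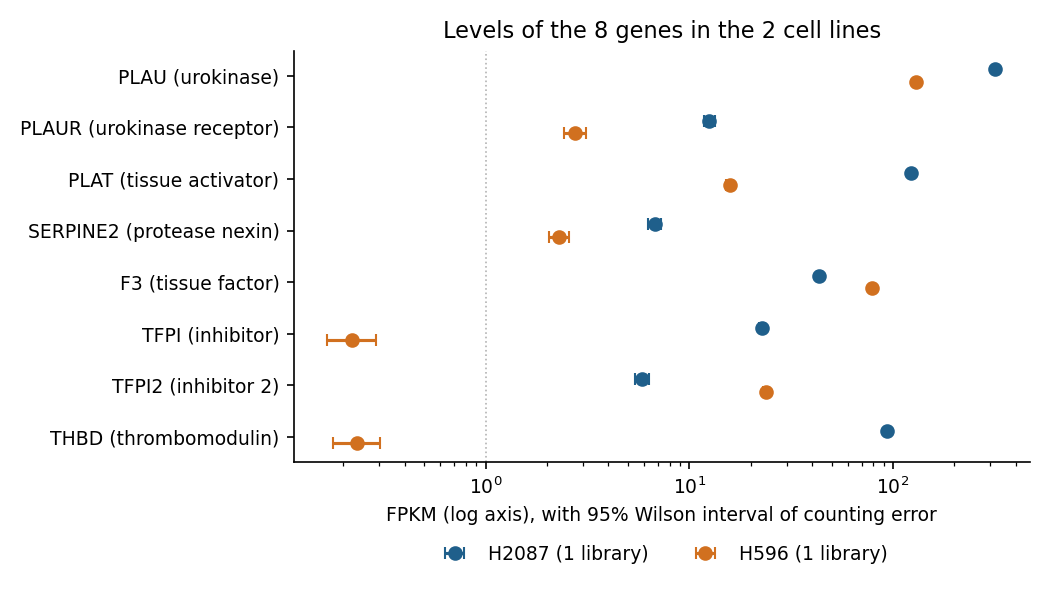
FPKM (log axis) of the 8 genes in H2087 (blue) and H596 (orange), 1 library each; the bars are 95% Wilson intervals of counting error and the dotted line marks an FPKM of 1. TFPI and THBD fall below 1 in H596 only, from 22.7 and 93.2 in H2087.

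PLAU (gene 5328), which encodes urokinase, is transcribed from the plus strand of chromosome 10 (hg19), positions 75670859 to 75677258. The FPKM was 318 in H2087 (95% interval, 315 to 321) from 36262 counts, and 130 in H596 (128 to 132) from 17557 counts. It ranked 183 and 467 among all genes, so it was among the most abundant messages of both lines. The level was 2.45-fold higher in H2087 (95% interval, 2.40 to 2.49), a difference of -1.28, and 10.4% of the tested genes were at least as much lower in H596. Transcript NM_002658 made up 95.2% of the PLAU value in H2087 and 98.4% in H596. NM_001319191 is 28 bases shorter. The tables give lengths and not exons, and coding exon 3 is the exon of PLAU in the annotation that has this length. It is shown because leaving it out would give the length of the shorter transcript:

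PLAU exon 3, chr10:75671799-75671826, plus strand: ggcagcaatgaacttcatcaagttccat

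The shorter transcript took 4.40% of the PLAU FPKM in H2087 and 1.24% in H596. In estimated counts it held 1577 of 36262 (4.35%; 95% Wilson interval, 4.14 to 4.56) and 216 of 17557 (1.23%; 1.08 to 1.40), so the counting intervals of the shares were separate. Division of reads among overlapping transcripts is an estimate of the authors' software, whose error these intervals leave out. The gene C10orf55 overlaps the whole of PLAU and had 76 counts in H2087 and 142 in H596, few beside those of PLAU. The libraries were stranded, but whether counting used the strand is not stated.

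PLAUR (gene 5329), the urokinase receptor, is a cell surface protein held by a lipid anchor. It lies on the minus strand of chromosome 19 from 44150247 to 44174498. Its FPKM was 12.5 in H2087 (95% interval, 11.8 to 13.4) from 912 counts, and 2.75 in H596 (2.43 to 3.12) from 241 counts. Both levels were far below those of its ligand. PLAUR was 4.56-fold higher in H2087 (95% interval, 3.95 to 5.27), a difference of -1.85. The FPKM of PLAU was 25.4 times that of PLAUR in H2087 (23.7 to 27.1) and 47.2 times in H596 (41.6 to 53.8). Hence the receptor message differed between the lines by more than the ligand message.

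PLAUR has 4 listed transcripts. NM_002659 took 68.0% of the PLAUR FPKM in H2087 and 82.9% in H596. NM_001005377 is 135 bases shorter, the length of coding exon 5. It took 14.4% in H2087, with 124 counts, and had 0 of 241 counts in H596, which allows a count share of up to 1.57% by the Wilson interval. NM_001301037, which is 143 bases shorter than NM_002659, went the other way, with 1 of 912 counts in H2087 (0.110%; 95% Wilson interval, 0.0194 to 0.618) and 24 of 241 in H596 (9.96%; 6.78 to 14.4). NM_001005376 took 17.6% and 6.31% of the PLAUR FPKM, from 152 and 15 counts. It also has another 3′ end, at 44150247, where that of NM_002659 is at 44152723. Both lines thus had shorter PLAUR transcripts beside the main one, in different proportions. In H596 these shares rest on few counts and on the way the software divides the reads. The exon whose length sets NM_001005377 apart has this reference sequence:

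PLAUR exon 5, chr19:44159591-44159725, minus strand: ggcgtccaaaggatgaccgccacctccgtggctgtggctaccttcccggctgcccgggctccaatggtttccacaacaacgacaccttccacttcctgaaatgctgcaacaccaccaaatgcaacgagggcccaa

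SERPINE2 (gene 5270), or protease nexin 1, is a serpin that inhibits thrombin, urokinase and tissue-type activator. It lies on the minus strand of chromosome 2 from 224839765 to 224904036. Its FPKM was 6.75 in H2087 (95% interval, 6.28 to 7.26) from 731 counts, and 2.30 in H596 (2.05 to 2.58) from 296 counts. It was 2.94-fold higher in H2087 (95% interval, 2.56 to 3.37), with a difference of -1.23. SERPINE2 and the activators were therefore higher in the same line, and the FPKM ratio of PLAU to SERPINE2 was 47.1 in H2087 (43.8 to 50.7) and 56.5 in H596 (50.4 to 63.6). This does not hold for every inhibitor. SERPINB2, which also inhibits urokinase, went the other way, with 0 counts in H2087 and an FPKM of 35.2 in H596.

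The SERPINE2 transcripts differed more than the gene. NM_006216 and NM_001136528 span the same positions and differ in length by 3 bases, and the annotation holds 1 coding exon in 2 forms, of 87 and 90 bases, with a common end at 224845028. The sequence below runs from 12 intronic bases through the 3 extra bases, in capitals, to 15 bases of the exon. Both the extra bases and the 3 before them end in ag, the usual end of an intron.

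SERPINE2 alternative exon start, chr2:224845100-224845129, minus strand: attttctggaagCAGggtcagaaaacctcc

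The longer transcript, NM_006216, took 0.174% of the SERPINE2 FPKM in H2087 and 44.3% in H596. It held 2 of 731 counts in H2087 (0.274%; 95% Wilson interval, 0.0751 to 0.992) and 131 of 296 in H596 (44.3%; 38.7 to 49.95). The other 2 listed SERPINE2 transcripts had 0 counts in both lines. These shares rest on the reads that cross this exon start, whose number the files do not give, and on the way the software divides the rest. On the highest single transcript in place of the gene, the SERPINE2 difference was -1.76.

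PLAT (gene 5327), the tissue-type activator, lies on the minus strand of chromosome 8 from 42032236 to 42065242. Its FPKM was 122 in H2087 (95% interval, 121 to 124) from 18853 counts, and 15.8 in H596 (15.2 to 16.4) from 2872 counts. It was 7.75-fold higher in H2087 (95% interval, 7.45 to 8.07), a difference of -2.88, and 2.08% of the tested genes were at least as much lower in H596. Of the genes of plasminogen activation among the 8, PLAT differed most. NM_000930 made up 97.6% of the PLAT value in H2087 and 94.2% in H596. The shorter NM_033011, which is 138 bases shorter, took 2.11% and 3.04%, and NM_001319189 took 0.324% and 2.79%.

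The balance of the activators thus differed between the lines. The FPKM ratio of PLAU to PLAT was 2.60 in H2087 (95% interval, 2.55 to 2.65) and 8.24 in H596 (7.92 to 8.58). Urokinase was the more abundant activator message in both lines, and by a wider margin in H596.

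**Figure D2:**
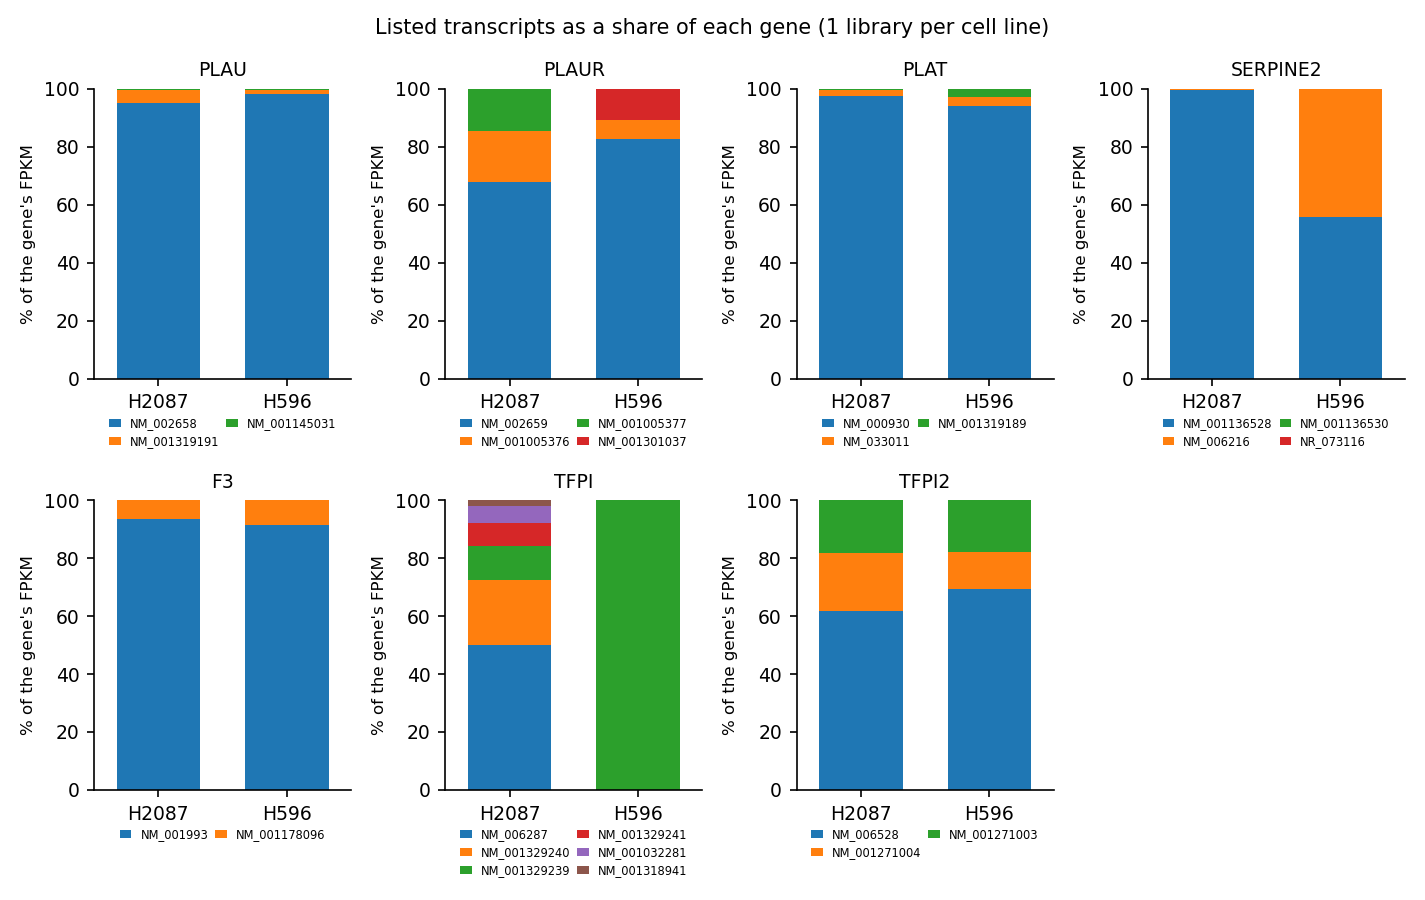
Share of each gene's FPKM (percent) taken by its listed transcripts in H2087 and H596, 1 library each, for the 7 genes with more than 1 transcript. SERPINE2 is split between 2 transcripts in H596 (55.7% and 44.3%) and rests almost wholly on 1 in H2087, and all 51 TFPI counts of H596 are assigned to 1 transcript.

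F3 (gene 2152), which encodes tissue factor, lies on the minus strand of chromosome 1 from 94994732 to 95007413. Its FPKM was 43.4 in H2087 (95% interval, 42.3 to 44.7) from 4963 counts, and 78.6 in H596 (77.1 to 80.1) from 10611 counts. It was 1.81-fold higher in H596 (95% interval, 1.75 to 1.87), a difference of 0.84, beyond counting error but under the 2-fold rule, and 22.3% of the tested genes were at least as much higher in H596. With FPKM rescaled to TPM, which gives both libraries the same sum, the difference was 1.03 and passed that rule. With TMM scaling it was 0.72. F3 stood out among the 8 as the gene with the smallest difference.

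The 2 listed F3 transcripts differ by 160 bases, the length of coding exon 5. NM_001178096, which lacks it, encodes the alternatively spliced soluble form of tissue factor, without the part that spans the membrane. It took 6.38% of the F3 FPKM in H2087 and 8.53% in H596. In counts these were 297 of 4963 (5.98%; 95% Wilson interval, 5.36 to 6.68) and 850 of 10611 (8.01%; 7.51 to 8.54), so the membrane form made up most of F3 in both lines. The exon that separates the forms is shown:

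F3 exon 5, chr1:94997877-94998036, minus strand: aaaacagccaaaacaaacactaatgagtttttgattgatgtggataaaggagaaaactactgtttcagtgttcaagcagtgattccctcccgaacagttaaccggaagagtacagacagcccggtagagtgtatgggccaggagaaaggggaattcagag

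TFPI (gene 7035), the inhibitor of the tissue factor and factor VIIa complex, lies on the minus strand of chromosome 2 from 188328957 to 188419232. Its FPKM was 22.7 in H2087 (95% interval, 22.02 to 23.4) from 4079 counts, and 0.220 in H596 (0.167 to 0.289) from 51 counts. It was 103-fold higher in H2087 (95% interval, 78.4 to 139), and its difference of -4.28 was equalled or exceeded towards H2087 by 0.582% of the tested genes. TFPI was therefore readily detected in H2087 and close to the lower end of detection in H596. The FPKM ratio of F3 to TFPI was 1.91 in H2087 (1.84 to 1.99) and 357 in H596 (272 to 480).

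The 6 TFPI transcripts fall into 2 groups by their 3′ end. The 4 with the long end, at 188328957, held 92.1% of the TFPI FPKM in H2087, led by NM_006287 with 50.02%. The 2 with the short end, at 188343306, held 7.92%. Among these is NM_001032281, the beta form, which is tied to the membrane by a lipid anchor. In H596 all 51 counts were assigned to NM_001329239, a transcript with the long end, which took 11.8% of TFPI in H2087. In counts, the short end held 102 of 4079 in H2087 (2.50%; 95% Wilson interval, 2.06 to 3.03) and 0 of 51 in H596, which allows up to 7.005%. The count share of H2087 lies within that limit, so a difference in the short end was not detectable at this depth.

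TFPI2 (gene 7980) lies on the minus strand of chromosome 7 from 93514709 to 93520303. Its FPKM was 5.85 in H2087 (95% interval, 5.43 to 6.31) from 682 counts, and 23.7 in H596 (22.9 to 24.6) from 3271 counts. It was 4.05-fold higher in H596 (95% interval, 3.73 to 4.41), a difference of 1.85, and 6.37% of the tested genes were at least as much higher there. TFPI and its relative thus differed in opposite directions: the FPKM ratio of TFPI2 to TFPI was 0.258 in H2087 (0.237 to 0.280) and 108 in H596 (81.9 to 145). NM_006528 was the main TFPI2 transcript in both lines, with 61.7% and 69.3% of the gene. LOC105375401 overlaps the start of TFPI2 and had 7 and 6 counts.

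THBD (gene 7056), thrombomodulin, is a gene without introns on the minus strand of chromosome 20 from 23026270 to 23030301. Its FPKM was 93.2 in H2087 (95% interval, 91.9 to 94.6) from 18015 counts, and 0.232 in H596 (0.178 to 0.303) from 54 counts. It ranked 767 in H2087, with its interval below the study's threshold of 100, and 14658 in H596. THBD was 401-fold higher in H2087 (95% interval, 307 to 534), the largest difference among the 8 genes at -6.26. Of the 13048 tested genes, 11, THBD included, were at least as much lower in H596. The FPKM ratio of F3 to THBD was 0.466 in H2087 (0.452 to 0.481) and 338 in H596 (259 to 450), so tissue factor exceeded thrombomodulin in H596 only. THBD has 1 listed transcript and overlaps no other listed gene. THBD is also a marker of blood vessel endothelium, and of the endothelial markers PECAM1 had 10 and 0 counts, TEK 0 in both, CDH5 61 and 77, KDR 627 and 69, and VWF 25 and 246. The summed FPKM of these 5 markers was 2.57 in H2087 and 1.02 in H596, and PECAM1 and TEK were at or near 0 in both lines.

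**Figure D3:**
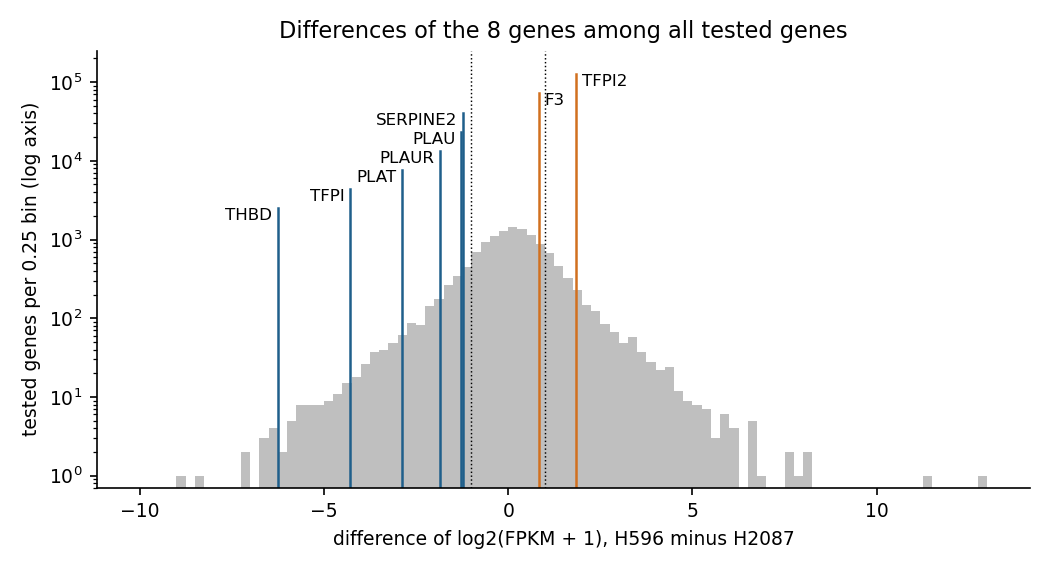
Number of tested genes (log axis) by how far log2(FPKM + 1) of H596 lies above that of H2087, in bins of 0.25 (gray), with the 8 genes as lines (blue, higher in H2087, or orange, higher in H596), whose heights carry no value. The dotted lines mark 2-fold. THBD at -6.26 and TFPI at -4.28 lie far out on the side of H2087, and F3 at 0.84 lies inside the 2-fold lines.

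The pathway around these genes was examined through 49 other genes, 22 of the plasminogen system and 27 of tissue factor signalling and coagulation. All 49 were listed in the table. Of them, 18 had at most 3 counts in both lines, and 18 had a mean FPKM of at least 1. Among the latter, 7 differed at least 2-fold, 2 higher in H596 and 5 higher in H2087, a share of 38.9% beside 32.4% of all tested genes. Their median difference was -0.49, against 0.12 over all tested genes. These lists, too, were chosen with earlier results of these data known, so the share and median are descriptions only.

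In the plasminogen system, plasminogen itself (PLG) had 0 counts in both lines, and the lines therefore carried message for the activators but none was detected for their substrate. CPB2, HABP2 and A2M also had 0 counts in both lines, and KLKB1 had 0 and 3. SERPINB2, an inhibitor of urokinase, had 0 counts in H2087 and 3832 in H596 (FPKM 35.2), at least 1079-fold higher when 3 counts are taken as the limit that a count of 0 allows. SERPINB2 was thus the most abundant serpin of this list in H596. SERPINI1, neuroserpin, was at 3.02 and 1.44 in FPKM. SERPINA5 had 184 counts (FPKM 1.64) in H2087 and 0 in H596, and its mean was under the filter.

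Of the proteins that bind plasminogen or its activators at the cell surface, ENO1 was 2.84-fold higher in H2087, with an FPKM of 2125 against 748. ANXA2 had the same FPKM to 3 digits in both lines, 1134. S100A10, its partner in binding plasminogen, had 199 in H2087 and 494 in H596, 2.48-fold higher in H596. The receptor LRP1, which takes up complexes of protease and inhibitor, had 3.58 and 7.15, a difference of 0.83 and so under the 2-fold rule. PLGRKT, another plasminogen receptor, had 17.2 and 9.19, IGF2R 18.8 and 15.5, and MRC2 1.24 and 0.709. HPN, a membrane protease, was the list gene with the largest difference towards H2087 in this group, 7.51 against 0.0447 from 7 counts, while the membrane protease ST14 had 131 and 91.8.

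In the coagulation list, 8 genes passed the filter, of which 3 were at least 2-fold higher in H2087 and 0 in H596. This share of 37.5% is near the 32.4% of all tested genes. PROCR, the endothelial protein C receptor, which works beside thrombomodulin, had FPKM values of 24.7 and 3.65, 6.77-fold higher in H2087. F12 had 13.7 and 0.514, and F5 had 3.52 and 0.0419. Protein C itself (PROC) had 2 counts in H2087 and 43 in H596, below the filter. PROS1, the cofactor of protein C, had 25.2 and 15.5. F2RL1, the receptor PAR2 through which the tissue factor complex signals to cells, had 18.5 in H2087 and 16.1 in H596, so the receptor differed little beside F3 and TFPI. The thrombin receptor F2R had 0.683 and 0.664, while F2RL2 and F2RL3 had 0 counts. F8 had 2.21 and 2.64. GGCX and VKORC1, enzymes of the vitamin K cycle, had 24.6 and 17.5, and 44.6 and 35.5. Of the genes for circulating clotting factors and fibrinogen, F2, F9, F10, F11, F13B and FGA had 0 counts in both lines. F7 had 4 counts in H2087 and 0 in H596, F13A1 had 9 and 0, FGB had 10 and 0, and FGG had 0 and 3. The genes SERPINC1, SERPIND1, SERPINA10 and PROZ, which encode inhibitors of clotting proteases or their cofactor, had 0 counts in both lines. PROC, F2R, F7, F13A1 and FGB were named after their values were seen.

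**Figure D4:**
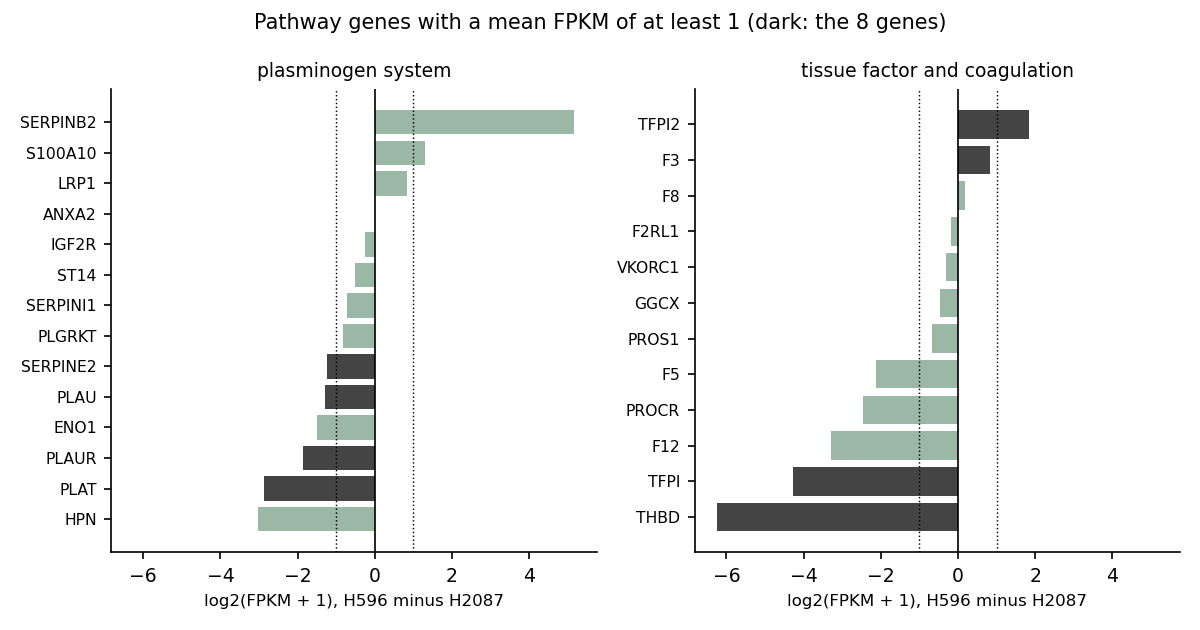
Difference in log2(FPKM + 1), as H596 minus H2087, for each pathway gene with a mean FPKM of at least 1, for the plasminogen system (left) and coagulation (right); dark bars are the 8 genes, pale bars the others, and dotted lines mark 2-fold. SERPINB2 reaches 5.18 towards H596, and THBD, TFPI and F12 reach -6.26, -4.28 and -3.28 towards H2087.

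The 8 genes lie on 7 chromosomes, and each was set beside its 40 nearest tested neighbours, 20 on each side. The stretches that these neighbours cover differ in size. They run from 178095031 to 197597530 around TFPI and from 87905744 to 98963885 around TFPI2, both much longer than around PLAUR. The neighbours of PLAUR, on chromosome 19 from 42724423 to 45187627, had a median difference of 1.04, and 4 of 40 were lower in H596. PLAUR, at -1.85, was lower than every one of them, the lowest being -0.51. The neighbours of THBD had a median of 0.32, and those of TFPI -0.25, with the lowest at -4.82 and -2.04. Both genes were therefore lower in H596 than any of these neighbours, and TFPI2, at 1.85, went against a median of -0.36 in its region. F3, at 0.84, also went against its region, with a median of -0.32. PLAU was lower in H596 in a region with a median of -0.41, in which 25 of 40 genes were lower. The medians around PLAT and SERPINE2 were -0.23 and -0.17.

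**Figure D5:**
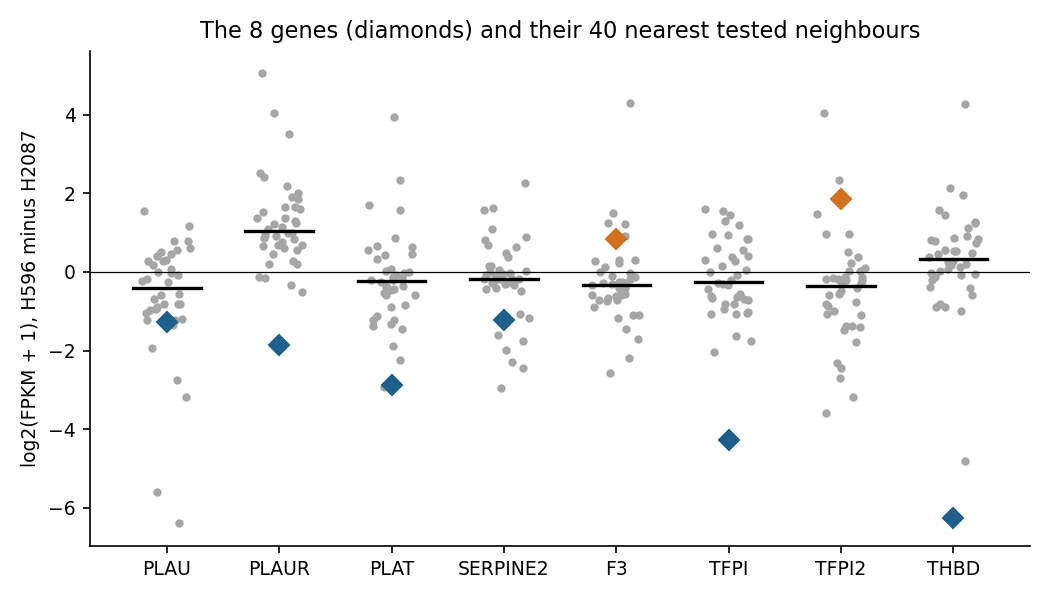
Difference in log2(FPKM + 1), as H596 minus H2087, for the 8 genes (diamonds; blue, higher in H2087; orange, higher in H596) and of the 40 nearest tested genes of each (gray points, with their median as a black line; horizontal scatter is for display). PLAUR lies below all of its neighbours, whose median is 1.04, and THBD and TFPI lie below all of theirs.

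Promoters of 6 of the 8 genes were read from the RefSeq promoter table, whose build is GRCh38.p14: PLAU and SERPINE2 with 2 start sites each, and PLAUR, F3, TFPI and TFPI2 with 1. PLAT was not searched, and THBD was not matched. In the 250 bases before each start, both strands were searched for the letters TGANTCA, the core of sites for AP-1, a factor known to act on several genes of this group. This string was found in 6.57% of all 35116 promoters of the table. It occurred in F3 at -223 and -210, in TFPI2 at -87 and in PLAUR at -186, and not in the windows of PLAU, SERPINE2 and TFPI. The 2 SERPINE2 windows lie before the starts of NM_001136530 and NR_073116, which had 0 counts in both lines. The SERPINE2 transcripts with counts start at 224904036, and the bases before that start were not searched. For PLAU, 1 window ends at 75670367, short of the start of the listed PLAU transcripts at 75670859. The letters GGGCGG, found in 42.6% of promoters, occurred in F3, TFPI2, SERPINE2 and 1 of the PLAU windows. The letters TATAAA, found in 10.7%, occurred in F3 at -28. These distances are from the RefSeq start. The transcripts listed here for F3, PLAUR, TFPI and TFPI2 begin upstream of it, so part of each window lies inside them. The same holds for the other PLAU window, which ends at 75670889. The TFPI2 match at -87 and the TATAAA of F3 are among the matches that lie inside listed transcripts. F3 had 34 CG pairs in its window, TFPI2 20 and TFPI 2, beside a median of 11 over all promoters. A match in letters is a description of the sequence and was not tested as a binding site.

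Part of these windows is shown for the tissue factor gene, its inhibitor and the urokinase receptor, as far as it lies before the listed transcripts. Each run matched the hg19 reference once, and its hg19 position is given. Capitals mark the AP-1 letters and, on either strand, the GC box.

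F3 promoter, chr1:95007414-95007565, minus strand: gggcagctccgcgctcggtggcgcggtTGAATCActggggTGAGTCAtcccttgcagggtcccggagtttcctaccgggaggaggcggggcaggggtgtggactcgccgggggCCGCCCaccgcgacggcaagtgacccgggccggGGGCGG

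PLAUR promoter, chr19:44174499-44174571, minus strand: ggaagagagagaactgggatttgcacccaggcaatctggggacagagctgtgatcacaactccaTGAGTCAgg

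TFPI promoter, chr2:188419233-188419412, minus strand: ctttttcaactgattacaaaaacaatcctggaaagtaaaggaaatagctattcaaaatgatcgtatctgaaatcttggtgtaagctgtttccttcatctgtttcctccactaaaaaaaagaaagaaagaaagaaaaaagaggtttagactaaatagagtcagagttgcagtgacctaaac

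F3 and TFPI2, the genes higher in H596, both carry the AP-1 letters in these windows, and so does PLAUR, which was lower there. PLAT and THBD were not searched, and whether these letters bear on the differences between the lines was not tested.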

How the data were processed

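Total RNA of untreated H2087 and H596 cells was made into stranded mRNA libraries and sequenced on an Illumina HiSeq4000. Per the labels, the reads were trimmed with Trimmomatic. The authors aligned them to hg19 with HISAT v2.0.5 and estimated transcript abundance with StringTie v1.3.3b. They deposited FPKM values and estimated counts, which are whole numbers, for each gene and transcript; how the counts were made is not stated. If both mates of a pair were counted, the intervals are too narrow.

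The groups were the 2 cell lines, with 1 library each. Differences are on the log2(FPKM + 1) scale, as H596 minus H2087, for the genes whose mean FPKM reached 1. The call rule was 2-fold, and no test was run. Levels have 95% Wilson intervals and ratios exact conditional (Clopper-Pearson) intervals, from the counts (scipy 1.17.1); 3 counts is the limit for a count of 0. The calls and intervals were checked on simulated data drawn with counting error only. Such a check cannot cover variation between cultures or libraries, or error in assigning reads to transcripts. Ratios of a gene between the lines are of FPKM itself. Positions are those of the deposited tables. Exon positions and sequences were read from GRCh37, the same build as hg19, with its GENCODE annotation, and promoters from RefSeq (GRCh38.p14). TMM scaling (edgeR 4.0.16) of the counts, TPM, centring, a pseudocount of 0.1, other filters, transcript values and each fragment counted as 2 reads were alternatives.

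The named genes are the 8 genes, the other pathway genes that reached an FPKM of 1 in either line, those with at most 3 counts in both, and for THBD and TFPI2 the 3 genes nearest in level. The 8 genes and the lists were chosen with earlier results of these data known. Of the lists, 1 gene is not reported here by name.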

Additional observations from a re-analysis of the deposited data

How the results depend on the processing

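All 8 genes kept the direction of their difference in each of the 48 values recomputed with TMM scaling, TPM, centring, a pseudocount of 0.1, summed transcripts and the highest single transcript. The number of the 8 genes differing at least 2-fold, 7, was 8 with TPM, where F3 joined, and 5 of the 6 that remained with a mean FPKM of at least 10. For the pathway genes, 7 became 4 of 12 with that filter, and for all genes 4226 became 1986 of 6708, as the stricter filter leaves fewer genes. Under the other alternatives these totals stayed within 1.5 times, but the genes higher in H596 rose from 2376 to 3590 with TPM, and with TMM scaling or centring more genes were higher in H2087 than in H596. The median difference of all tested genes, 0.12, was 0.00 with TMM scaling and 0.29 with TPM. The low levels in H596 made TFPI and THBD depend most on the pseudocount: with 0.1 they differed by -6.16 and -8.13, against -4.28 and -6.26. On the highest transcript of each library, TFPI differed by -3.34. That value sets NM_006287 in H2087 against another transcript, NM_001329239, in H596. Depth limits TFPI and THBD in H596, with 51 and 54 counts. No paired analysis was possible because the lines had a single library each, which also left no library to leave out.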

Other observations

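The genes nearest to THBD in level, by the distance over both values of log2(FPKM + 1), were GAL, EREG and SFTA3. GAL, which encodes the neuropeptide galanin, was at an FPKM of 87.3 (H2087) and 0.0862 (H596), at a distance of 0.20. EREG, a ligand of EGFR, had 99.3 and 0.0533, and SFTA3 had 100.6 and 0.0304. With 2 libraries such likeness is only that of a pair of levels. For TFPI2 the nearest were LGR4, with 5.90 in H2087 and 24.0 in H596, CMC4, with 5.97 and 23.1, and C7orf26, with 6.11 and 23.3.

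Among the 40 tested neighbours of THBD, FOXA2, a transcription factor of lung epithelium, differed most towards H2087, with FPKM values of 30.5 (H2087) and 0.116 (H596). NXT1, the nearest tested neighbour, had 17.0 and 24.9, and GZF1 had 3.85 and 3.93. Within the region of PLAU, SFTPA1 and SFTPA2, which encode surfactant protein A, had 82.9 and 47.6 in H2087 and are listed at 0 in H596. In the region of PLAUR, PSG5 is listed at 0 in H2087 and had 32.1 in H596. These neighbours were chosen after their values were seen.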
